A study of Bos indicus with 11 samples.

Results

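Cytochrome P450 enzymes and the enzymes that conjugate small molecules were described in endometrial biopsies of Nelore (Bos indicus) beef cows. The set holds every listed gene whose symbol begins with CYP followed by a family number and a subfamily letter (except CYP51A1, which makes cholesterol), with UGT or SULT and a number, or with GST of the alpha, mu, omega, pi, theta or zeta class and a number. It comprised 76 of the 24616 genes listed, and 45 of these had a mean of at least 5 normalized counts over all cows, as did 15081 genes in all. The 45 were 23 of 38 CYP genes, 3 of 9 UGT genes, 14 of 18 GST genes and 5 of 11 SULT genes. A normalized count is the number of reads on a gene divided by a size factor for the library, so levels are compared between cows within a gene and not between genes. All animals were healthy multiparous Nelore cows that had been synchronized and inseminated at estrus, and the biopsy was taken 6 days after artificial insemination (AI) from the uterine horn opposite the ovary with the corpus luteum. The outcome was known only afterwards, from the diagnosis on day 30, which gave 6 pregnant (P) cows and 5 that were not (NP). Each cow gave 1 library and counts as 1 replicate, and P and NP stand for the later outcome and not for a treatment.

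Cytochrome P450 enzymes are heme proteins that insert 1 atom of oxygen into a lipophilic substrate with electrons from NADPH, delivered by P450 oxidoreductase in the endoplasmic reticulum and by ferredoxin in mitochondria. Some of them work on foreign compounds, and others make or break down steroids, oxysterols, retinoids, vitamin D and fatty acid mediators. Conjugating enzymes then add a polar group that helps the product leave the cell. UDP-glucuronosyltransferases (UGT) add glucuronic acid, glutathione S-transferases (GST) add glutathione, and cytosolic sulfotransferases (SULT) add sulfate. The endometrium is a target of ovarian steroids and of retinoids, and the enzymes that clear these ligands belong to the same families.

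Between 9290949 and 13569085 reads were counted on genes per cow, and 1 read was worth 0.784 to 1.14 normalized counts. Cow P617 stood apart from the other cows before any comparison of the groups. Its mean log2(normalized count + 1) over 15 epithelial markers was 6.91, against 8.79 to 10.46 in the other 10 cows, and its smooth muscle score over 9 markers was the highest, at 15.50, followed by 15.12 in cow P1541 and 11.71 to 14.42 in the rest. The label places this cow among the pregnant cows, whereas a supplementary list of the study's sequencing records names it as NP. It was kept as P, and results are also given without it. The other marker lists differed between the groups as well. Of 8 endothelial markers 7 had an unadjusted p under 0.05 (limma) and all 7 were higher in NP, as were 5 of 10 leukocyte and 2 of 8 stromal markers, whereas 2 of 9 smooth muscle markers were higher in P. Over all genes tested, 5.49% had such a p and were higher in NP, and 2.35% were higher in P. Of 15 epithelial markers 1 (KRT7) had such a p and was higher in P, while 13 of the 15 had a lower mean log2 level in P, whatever their p. The endothelial score was 9.10 ± 0.50 in P (SD, n = 6) and 9.93 ± 0.33 in NP (SD, n = 5), and the stromal score was 13.06 ± 0.56 and 13.64 ± 0.16. The epithelial score was 9.22 ± 1.25 and 9.43 ± 0.20, the leukocyte score was 5.69 ± 0.36 and 6.33 ± 0.42, and the smooth muscle score was 13.95 ± 1.15 and 12.65 ± 1.17, each for the same cows. Of 4 red blood cell markers found, 0 reached the minimum mean. In a biopsy, fewer cells of a type and less RNA per cell cannot be told apart, and the part of tissue makeup in the values below was not tested except where a fit with a marker score is given.

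**Figure D1:**
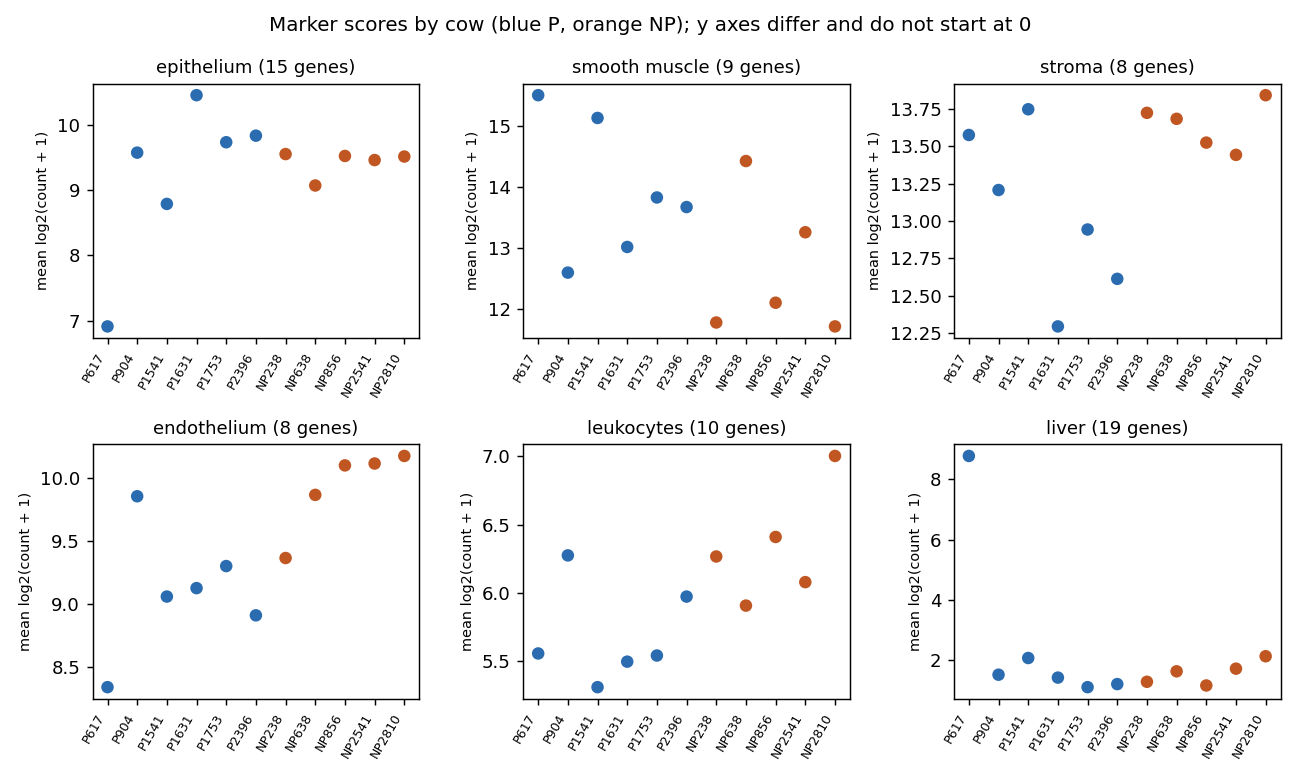
Marker scores of each cow, as the mean of log2(normalized count + 1) over the markers of each list (y axes differ and do not start at 0; blue, 6 P cows; orange, 5 NP cows). Cow P617 is lowest for epithelium, at 6.91, and highest for smooth muscle, at 15.50, and for the liver list, at 8.78.

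Cow P617 also carried reads of a group of enzyme genes that were close to absent from every other cow. Of the 76 genes, 9 had more than 3 reads in this cow and at most 3 in each of the others, which is 11.8%, against 161 of all 24616 genes, 0.654%. In each other cow the number of such genes was 0 or 1 of 76. CYP3A5 (ENSBTAG00000005450), an enzyme of drug and steroid oxidation, had 88 reads in P617 (99.4 normalized counts) and at most 3 in any other cow. CYP2E1, the ethanol-oxidizing P450, had 79 reads (89.2) against at most 1. CYP2C19 had 12 reads, CYP4F2 (ENSBTAG00000015735) had 8 and CYP4A11 had 4, with at most 1 read of each in any other cow. The glucuronosyltransferases UGT2B17, UGT2B4 and UGT2B11 had 20, 8 and 6 reads and 0 in the other 10 cows. SULT1E1, the estrogen sulfotransferase, had 14 reads (15.8 normalized counts) in P617 and at most 2 elsewhere. Their means are therefore values of a single cow, and no fold change between the groups is quoted for them, although CYP3A5 and CYP2E1 reached the minimum mean through that cow and enter the counts and medians below.

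Most of these enzymes are textbook products of the hepatocyte, so 20 liver genes were looked up after the values had been seen. All 20 were listed and 19 reached the minimum mean, and cow P617 was the highest of the 11 cows in 19 of 19. The list was picked with the values known, and its genes reached the minimum mean largely through this cow. That count is therefore a description and not a test. The summed level of all 20 was 21031 normalized counts in P617 and 34.2 to 173 in the other 10 cows. ALB, which encodes serum albumin, stood at 3323 against at most 46.5, and FGB, the fibrinogen beta chain, at 5329 against at most 33.6. AMBP was at 477 against at most 0.968, and CPS1, the first enzyme of the urea cycle, at 323 against at most 1.08. The list made up 0.147% of this cow's reads on genes. Among the 25 enzyme genes that had a read and a mean under 5, P617 was the highest cow in 15, against 13.5% of all genes of that kind. The source of these reads was not tested.

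**Figure D2:**
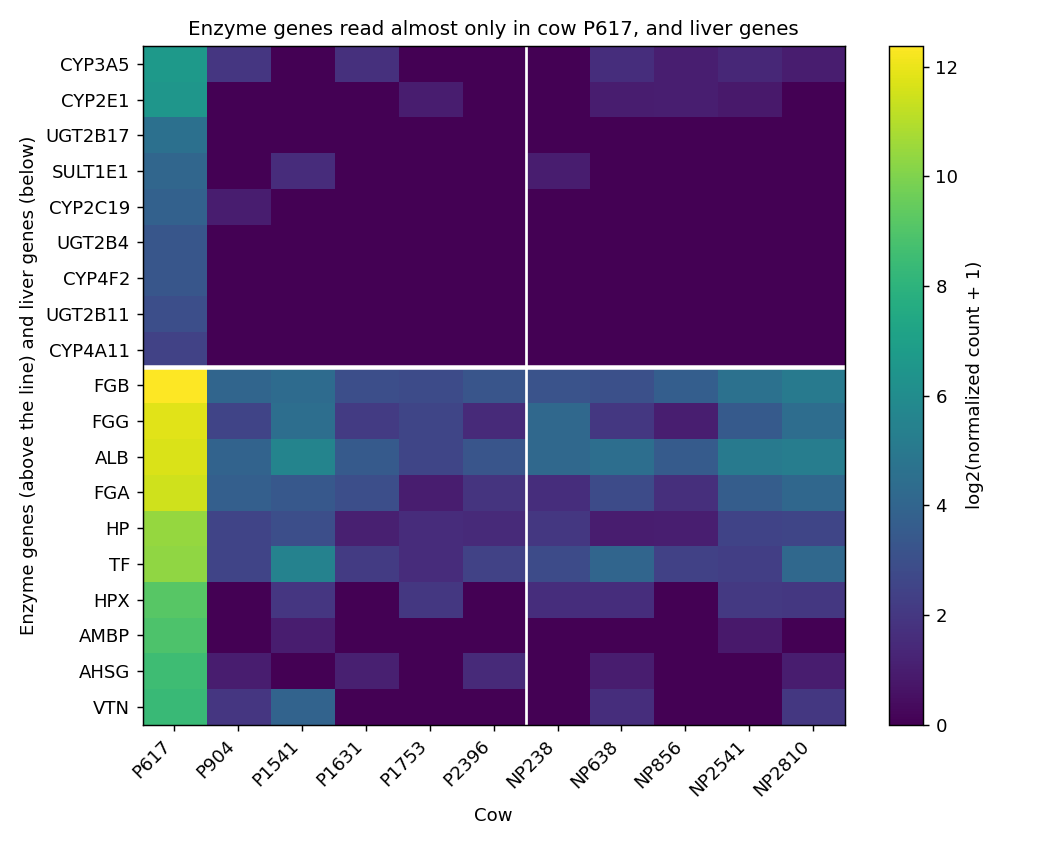
Levels of the 9 enzyme genes read almost only in cow P617 (above the white line) and of the 10 liver genes highest in that cow (below), as log2(normalized count + 1) by color for each of the 6 P and 5 NP cows. The P617 column is bright throughout, with 88 reads of CYP3A5 and 79 of CYP2E1, and the other columns are at or near 0 in the enzyme genes.

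The first question was which of these enzymes differed 6 days after AI between cows that were later pregnant and cows that were not. Fold changes are P over NP on the log2(normalized count + 1) scale, so they understate the change of low genes. With limma, 0 of the 45 genes had an adjusted p under 0.1, as did 0 of all 15081 genes tested (0.0%), and the smallest adjusted p among the 45 was 0.259. An unadjusted p under 0.05 was found for 13 of 45 genes, 28.9%. Of these 10 were higher in P, against 2.35% of all genes tested, and 3 were higher in NP, against 5.49%. The 10 were CYP2U1, UGT2A3, CYP2A13, CYP2R1, CYP2C18, CYP4B1, GSTA2, GSTZ1, GSTP1 and 1 of 3 listed GSTM1 genes, and the 3 were CYP1B1, CYP7B1 and CYP27C1. CYP2C18, GSTA2 and UGT2A3 had NP means of 1.27, 2.86 and 4.76 normalized counts. They passed the minimum mean of 5 only through the P cows, so their place among the 10 is a description. With a minimum mean of 20, the count higher in P was 7. By family, the 13 were 8 of 23 CYP, 1 of 3 UGT, 4 of 14 GST and 0 of 5 SULT genes, and all 4 GST genes were higher in P. Every P cow was above every NP cow in 3 genes (CYP2U1, UGT2A3 and GSTZ1), against 0.239% of all genes tested, and every NP cow was above every P cow in 0 genes, against 0.855%. The median log2 fold change was 0.12 over the 45 genes and close to 0 over all genes, with a range of -2.28 to 2.18, and 24 genes were higher and 21 lower in P.

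The counts moved when single cows were left out and when a marker score was added to the model. Without P617, 5 genes were higher in P (2.77% of all genes) and 3 in NP (6.18%), and the genes that no longer had an unadjusted p under 0.05 were GSTA2, GSTZ1, GSTP1, CYP4B1 and GSTM1. The count higher in P was also 5 without NP238 and without NP856, 6 without P1541, P2396 or NP638, and 5 without P617 and P1541 together. The count higher in NP was 6 without P904 and 1 without NP2810. The background moved as well. Over all genes tested, those with an unadjusted p under 0.05 in either direction were 1182 with all cows. They were 1548 without P904, 853 without NP856, 883 without NP238 and 1140 without NP2810. With the smooth muscle score in the model, 4 genes were higher in P (CYP2U1, UGT2A3, CYP2A13 and CYP2C18) and 1 in NP (CYP1B1), against 1.56% and 4.54% of all genes tested. With the epithelial score the counts were 9 and 4, against 4.53% and 8.24%, so the background rose and the count higher in P did not. DESeq2 on the recovered reads gave 2 of the 45 genes an adjusted p under 0.1, CYP2U1 and UGT2A3, against 1.33% of all genes tested.

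**Figure D3:**
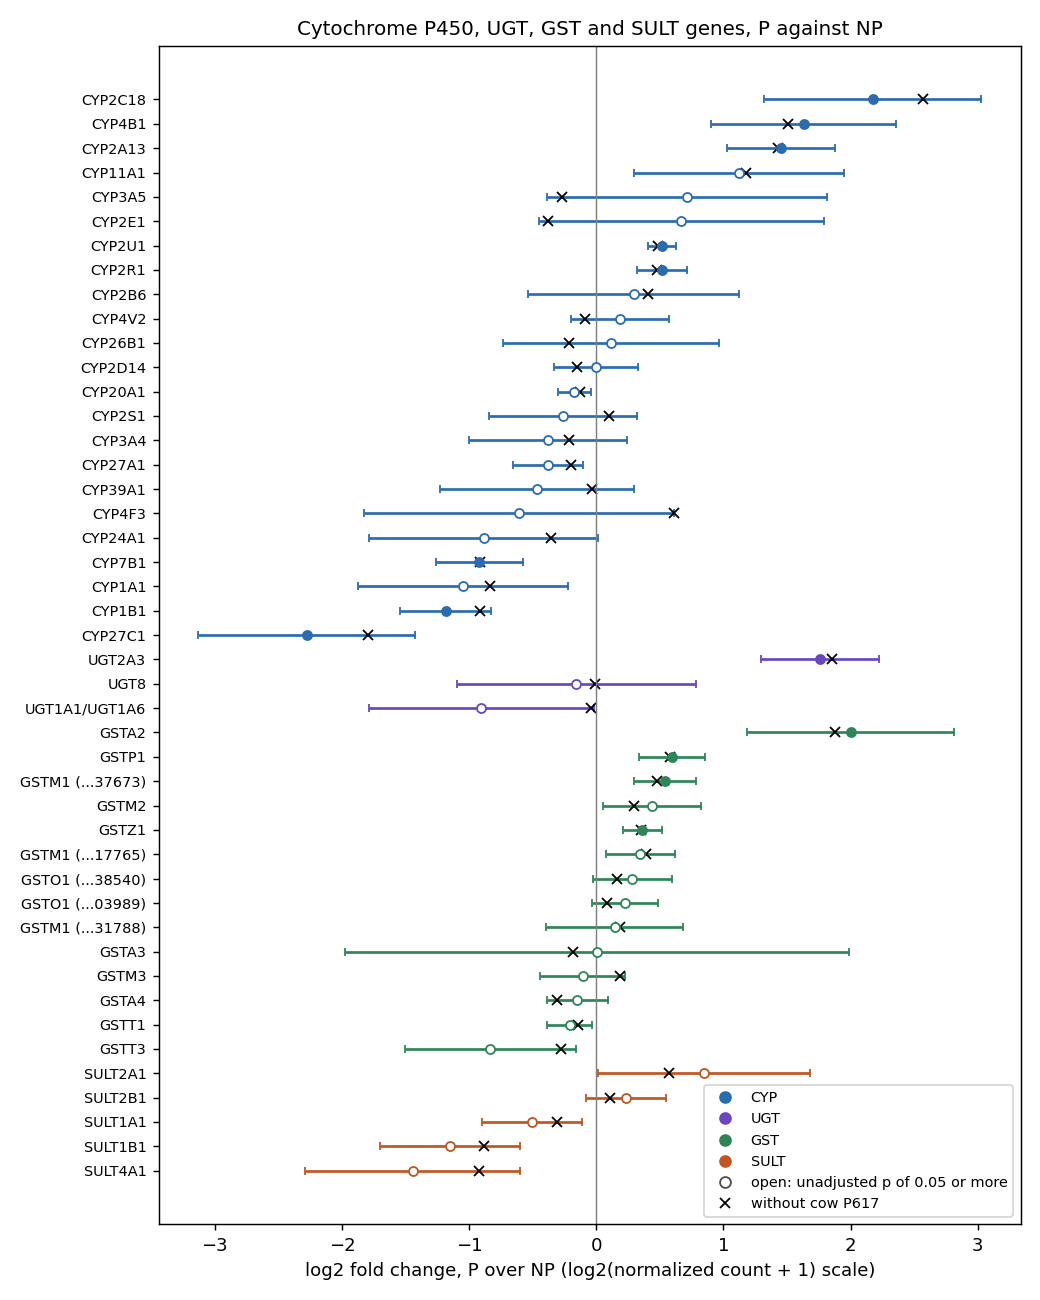
Log2 fold change of P over NP (x axis, log2(normalized count + 1) scale) with its standard error for each of the 45 genes, by family, with filled points for an unadjusted p under 0.05 (limma) and crosses for the value without cow P617. All 4 filled GST points lie to the right of 0, and CYP4F3 moves from -0.61 to 0.61 when P617 is left out.

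The gene with the smallest p was a fatty acid hydroxylase. CYP2U1 (ENSBTAG00000012972), which hydroxylates long-chain fatty acids such as arachidonic acid, was at 471, 464, 412, 370.0, 372 and 419 normalized counts in cows P617, P904, P1541, P1631, P1753 and P2396, and at 306, 261, 281, 286 and 320.1 in cows NP238, NP638, NP856, NP2541 and NP2810 (cows are listed in this order throughout). The lowest P cow was above the highest NP cow, and P617 was the highest of all. The means were 418 ± 43.2 in P (SD, n = 6) and 291 ± 23.1 in NP (SD, n = 5), a log2 fold change of 0.52 ± 0.109 (SE), with an adjusted p of 0.259 by limma and 9.63e-04 by DESeq2, and of 9.63e-04 to 0.716 over all alternatives. The highest of these came from counting P617 as NP. The difference kept an unadjusted p under 0.05 (limma) whichever single cow was left out, with a log2 fold change of 0.48 to 0.56.

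CYP2A13 (ENSBTAG00000047815) belongs to the CYP2A enzymes, known in the airway for activating tobacco nitrosamines. It was at 113, 61.3, 80.3, 121, 112 and 160.2 in P cows and at 23.3, 63.9, 14.0, 72.9 and 44.9 in NP cows. The groups overlapped, since P904 was below NP638 and NP2541. The log2 fold change was 1.45 ± 0.423 (SE), with an adjusted p of 0.364 (limma), and it was 1.43 without P617. CYP2C18 had few reads, at 1.13, 24.0, 0.968, 27.4, 20.1 and 4.38 in P cows and 0, 1.01, 4.30, 0 and 1.02 in NP cows. Here P617 and P1541, the cows with the highest smooth muscle scores, were at the level of the NP cows and the other P cows were above them or level with NP856. The log2 fold change was 2.18 ± 0.854 (SE) with all cows and 2.57 without P617, and leaving out any of 5 other cows took the unadjusted p of CYP2C18 over 0.05 (limma). CYP4B1, a monooxygenase of fatty acids and plant toxins, spanned 73.6 to 397 in P and 13.1 to 258 in NP cows, with a log2 fold change of 1.63 ± 0.729 (SE). NP2541 and NP2810 were within the P range, and leaving out any of 7 cows took its p over 0.05.

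**Figure D4:**
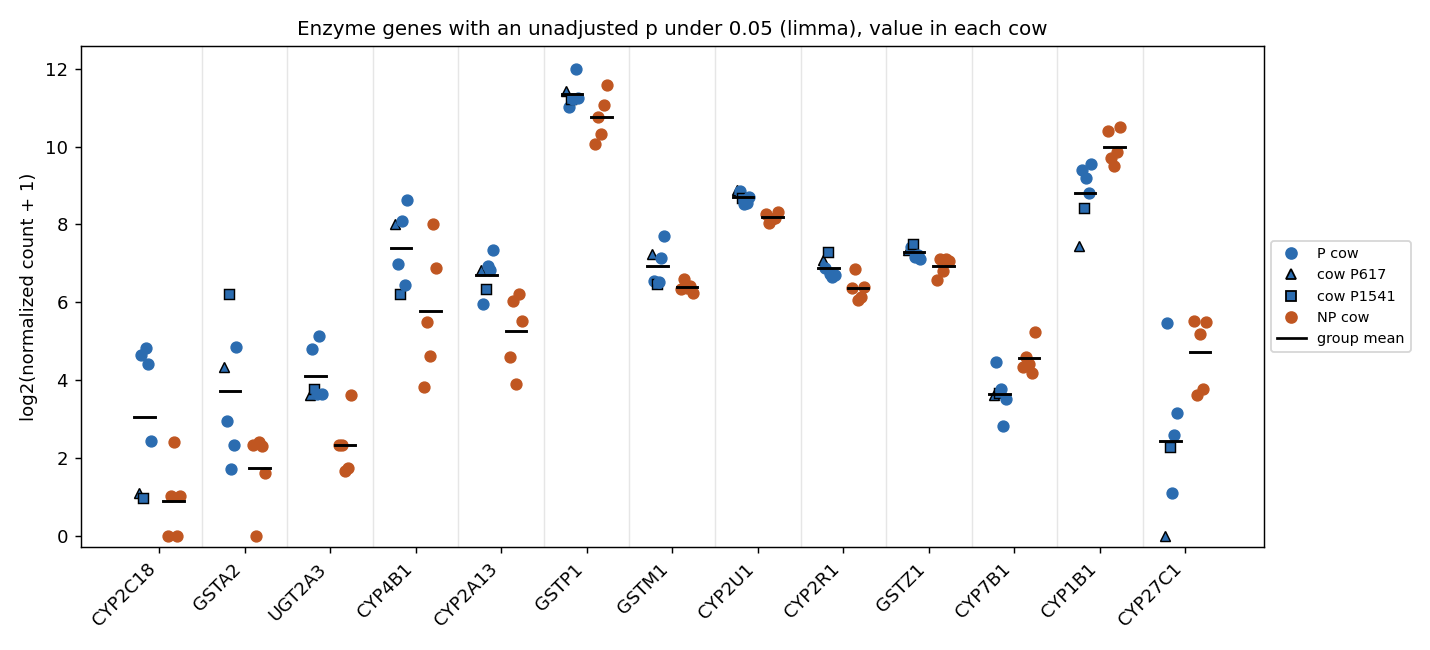
Level of the 13 genes with an unadjusted p under 0.05 (limma) in each cow as log2(normalized count + 1), with group means as bars (blue, P; orange, NP; triangle, P617; square, P1541). CYP2U1, UGT2A3 and GSTZ1 are the 3 genes in which the groups do not overlap, and CYP27C1, CYP2C18 and GSTA2 spread the most within P.

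Other P450 genes of this kind did not reach that level. CYP4F3, a leukotriene B4 hydroxylase, was at 6.78 in P617 and at 516 to 1987 in the other 10 cows, and its range over the cows was the widest of the CYP genes on the log2 scale. Its log2 fold change was -0.61 ± 1.22 (SE) with P617 and 0.61 ± 0.312 (SE) without, and in neither fit was the unadjusted p under 0.05 (0.629 and 0.0741, limma). CYP4V2, another fatty acid hydroxylase, went the other way in that cow, at 1945 against 397 to 1143. CYP2B6, CYP2D14, CYP2S1, CYP3A4 and CYP20A1 had log2 fold changes between -0.38 and 0.29, each with an unadjusted p over 0.05. P617 was the lowest cow in 13 of the 45 genes and the highest in 9, against 27.1% and 26.0% of all genes tested, and no other cow was the lowest in more than 9 or the highest in more than 9.

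Among the P450 genes of steroids and oxysterols, 2 were higher in NP. CYP1B1 (ENSBTAG00000010531), which hydroxylates estradiol and aromatic hydrocarbons and can also oxidize retinoids, was at 174, 672, 341, 589, 449.97 and 755 in P cows and at 1347, 835, 718, 925 and 1461 in NP cows. Only P2396 was above the lowest NP cow, and P617 and P1541 were the lowest of all. The means were 497 ± 218 in P (SD, n = 6) and 1057 ± 327 in NP (SD, n = 5), a log2 fold change of -1.19 ± 0.356 (SE), with an adjusted p of 0.373 (limma). Without P617 it was -0.91 ± 0.253 (SE), with the epithelial score -1.07 (adjusted p = 0.0769, limma) and with the smooth muscle score -0.64, and adjusted p-values ran from 0.0769 to 0.938 over all alternatives. The difference kept an unadjusted p under 0.05 (limma) in every fit that left out 1 cow. CYP7B1, the oxysterol 7-alpha-hydroxylase, was at 11.3, 21.1, 11.6, 12.6, 6.04 and 10.5 in P cows and at 19.2, 23.3, 20.4, 17.3 and 36.7 in NP cows. Only P904 overlapped with the NP cows. Its log2 fold change was -0.92 ± 0.340 (SE) and -0.91 without P617, and its unadjusted p (limma) went over 0.05 without NP2810, with the smooth muscle score and with P617 counted as NP.

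The other steps of sterol metabolism were less separated. CYP27A1, the sterol 27-hydroxylase, had 3759.8 ± 1373 in P (SD, n = 6) and 4628 ± 765 in NP (SD, n = 5), and CYP39A1, which hydroxylates 24-hydroxycholesterol, had 2396.2 ± 1830.0 in P (SD, n = 6) and 3176 ± 2269 in NP (SD, n = 5). Both had an unadjusted p over 0.05 and both were lowest in P617. CYP11A1, which cleaves the cholesterol side chain to start steroid synthesis, was at 3.87 to 45.5 in P and 0 to 26.7 in NP cows. CYP19A1, the aromatase, had a single read in P1541 and 0 in the other 10 cows. A count of 0 allows up to 3 reads, or 2.35 to 3.43 normalized counts, in each of those 10 libraries. CYP7A1 and CYP8B1 of bile acid synthesis had means of 4.28 and 3.90 and were not tested. CYP11B1 was at 0 in every cow, and CYP17A1 and CYP21A2 were not listed under those symbols. CYP1A1, the classical target of the aryl hydrocarbon receptor, spanned 8.71 to 66.1 in P and 20.3 to 437 in NP cows, with the highest value in NP2810. Its log2 fold change was -1.05 ± 0.824 (SE), an unadjusted p of 0.229 by limma, and CYP1A2 was not listed under that symbol.

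For vitamin D, CYP2R1, the 25-hydroxylase that starts its activation, was at 134, 117, 156, 105, 98.7 and 102 in P cows and at 81.9, 116, 65.6, 69.8 and 83.6 in NP cows. Every P cow was above 4 of the 5 NP cows, and NP638 alone reached the P range. The log2 fold change was 0.52 ± 0.199 (SE) with an adjusted p of 0.522 (limma). Its unadjusted p went over 0.05 without P1541, NP856 or NP2541. CYP27B1, which makes the active hormone, had a mean of 3.36 normalized counts and was not tested. CYP24A1, which inactivates it, was at 0, 60.4, 0.968, 7.99, 8.05 and 5.25 in P cows and at 8.09, 9.13, 20.4, 16.5 and 5.10 in NP cows, with P904 far above the others.

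For retinoids, CYP27C1, which desaturates retinol, was at 0, 43.1, 3.87, 1.14, 5.03 and 7.88 in P cows and at 44.5, 11.2, 35.5, 12.5 and 43.8 in NP cows. P904 lay with the high NP cows and the other 5 P cows were below every NP cow. The log2 fold change was -2.28 ± 0.852 (SE) and -1.79 without P617, with an adjusted p of 0.514 (limma). The unadjusted p of CYP27C1 was over 0.05 in 7 of 23 alternatives, among them 0.0501 without NP2810 and 0.178 with the smooth muscle score (limma). CYP26B1, which clears retinoic acid, was at 22.6, 2.87, 7.74, 3.43, 25.2 and 0.875 in P cows and at 9.10, 15.2, 17.2, 1.57 and 1.02 in NP cows, so the ranges of the groups overlapped almost entirely. CYP26A1 had a mean of 1.15 normalized counts, 7 reads of it in NP856, and CYP26C1 was at 0 in every cow.

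The partners of steroid and retinoid metabolism were the pathway list with the most differences. Of 26 tested genes, 1 was higher in P and 6 were higher in NP at an unadjusted p under 0.05 (limma), against 2.35% and 5.49% of all genes tested. An adjusted p under 0.1 was found for 0 of them, and the median log2 fold change was -0.26, against close to 0 over all genes tested. RDH10, which oxidizes retinol to retinal, was at 166, 885, 249, 375, 439.9 and 457 in P cows and at 1233, 718, 1298, 862 and 1814 in NP cows. Only P904 reached the NP range. Its log2 fold change was -1.58 ± 0.383 (SE), with an adjusted p of 0.264 by limma and of 0.0352 (DESeq2) to 0.882 (P617 counted as NP) over all alternatives. STRA6, the receptor that takes up retinol, ranged from 13.6 to 1157 in P and from 848 to 1773 in NP cows, with a log2 fold change of -2.58 ± 0.879 (SE) and -1.80 without P617. RBP4, the plasma carrier of retinol, had a log2 fold change of -0.77, CRABP2, a carrier of retinoic acid, -1.03, and STARD3, a cholesterol transporter, -0.36, and the unadjusted p of STARD3 was over 0.05 (limma) without P617. CRABP1, the other retinoic acid carrier, was higher in P, at 541, 339, 763, 372, 447 and 363 in P cows and 191, 361, 244, 226 and 243 in NP cows. This gave a log2 fold change of 0.87 ± 0.228 (SE), with an adjusted p of 0.323 by limma and of 0.0562 (DESeq2) to 0.775 over all alternatives. ALDH1A2, which makes retinoic acid from retinal and belongs to another list, was lower in P, with 122 ± 115 in P (SD, n = 6) and 344 ± 189.8 in NP (SD, n = 5) and a log2 fold change of -1.93 ± 0.651 (SE). Its relatives on that list did not share this direction to the same extent. ALDH1A1 had a log2 fold change of 0.38 with all cows and 0.80 without P617 (unadjusted p of 0.433 and 0.00954, limma), and ALDH1A3 of -0.09. Among the steroid and retinoid partners, RARG, HSD11B1 and HSD11B2 also had an unadjusted p under 0.05 only without P617. All were lower in P, at log2 fold changes of -0.68, -1.61 and -0.83 without that cow (unadjusted p of 2.63e-04, 0.00968 and 0.0231, limma). P904 was the highest P cow in RDH10, STRA6, RBP4, CRABP2, ALDH1A2 and CYP27C1, and it also had the highest endothelial score of the P cows, at 9.86.

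**Figure D5:**
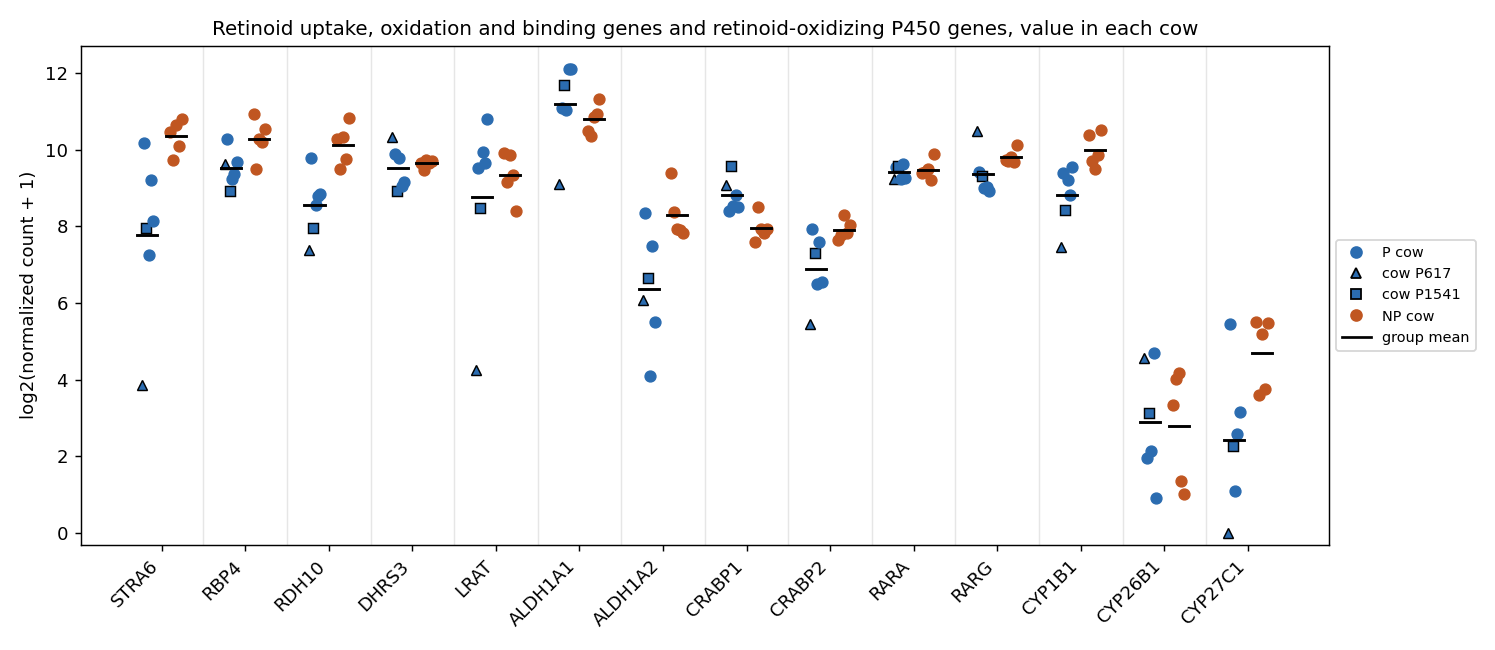
Level of retinoid uptake, oxidation and binding genes and of CYP1B1, CYP27C1 and CYP26B1 in each cow as log2(normalized count + 1), with group means as bars (blue, P; orange, NP; triangle, P617; square, P1541). RDH10, STRA6 and CRABP2 are higher in NP, CRABP1 is higher in P, and the ranges of the groups overlap almost entirely in CYP26B1.

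Glucuronosyltransferases were few in these biopsies. UGT2A3 (ENSBTAG00000004040), known for glucuronidation of bile acids, was at 11.3, 26.8, 12.6, 11.4, 34.2 and 11.4 in P cows and at 4.05, 4.06, 2.15, 2.35 and 11.2 in NP cows. Every P cow was above every NP cow, although NP2810 came close to the lowest P cow. The means were 18.0 ± 10.03 in P (SD, n = 6) and 4.76 ± 3.72 in NP (SD, n = 5), a log2 fold change of 1.76 ± 0.467 (SE), with an adjusted p of 0.323 by limma and 0.0871 by DESeq2, and of 0.0871 to 0.684 over all alternatives. P617 was not an exception here, and the log2 fold change was 1.86 without it. The gene listed as UGT1A1 and UGT1A6, whose products conjugate bilirubin and phenols, was at 92.6 in P617 and at 1442 to 4966 in the other 10 cows. Its log2 fold change was -0.90 ± 0.885 (SE) with P617 and -0.04 ± 0.306 (SE) without. UGT8, which makes galactosylceramide, ranged from 0 to 31.6 in P and from 1.01 to 29.0 in NP cows. Of the other 6 UGT genes, UGT2B10 was at 0 in every cow and 5 had a read, and P617 held the highest value in each of those 5.

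Of the 14 glutathione S-transferases, 10 were higher in P and 4 lower, with a median log2 fold change of 0.26. GSTZ1, an isomerase of tyrosine breakdown, was at 163, 171, 181, 142, 147 and 138 in P cows and at 94.1, 138, 111, 137 and 133 in NP cows. The groups did not overlap, yet the gap between P2396 and NP638 was under 1 read. The log2 fold change was 0.36 ± 0.155 (SE), with an adjusted p of 0.598 (limma), and its unadjusted p was 0.0595 without P617. GSTP1, the pi class enzyme, was at 2773, 2059, 2373, 2405, 4068 and 2430.3 in P cows and at 1069, 1731, 1291, 2135 and 3068 in NP cows, with a log2 fold change of 0.60 ± 0.262 (SE). NP2810 was above 5 of the 6 P cows. GSTA2, an alpha class enzyme, was at 19.2, 6.71, 72.6, 2.28, 4.03 and 28.0 in P cows and at 4.05, 0, 4.30, 3.92 and 2.04 in NP cows, which gave a log2 fold change of 2.002 ± 0.814 (SE). Its value in P1541 was more than all other P cows together, and 2 P cows lay within the NP range. Leaving out any of 5 cows took the unadjusted p of GSTA2 over 0.05 (limma).

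GSTM1 was listed under 3 identifiers, between which reads of near-identical copies could be split. The gene ENSBTAG00000037673 was at 151, 92.0, 87.1, 90.2, 139.9 and 207 in P cows and at 79.9, 95.4, 81.7, 84.7 and 74.4 in NP cows, with a log2 fold change of 0.54 ± 0.243 (SE), and its p went over 0.05 without any of 8 cows. The other GSTM1 genes had log2 fold changes of 0.35 and 0.15, each with an unadjusted p over 0.05 (limma). GSTA3 (ENSBTAG00000032642), which can isomerize steroid intermediates, had the widest range of the 45 genes on the log2 scale, at 159, 314, 2.90, 2899.6, 1.01 and 284 in P cows and at 3.03, 2088, 48.4, 109.8 and 82.6 in NP cows. A single cow in each group, P1631 and NP638, was far above its own group, and the log2 fold change was 0.01 ± 1.98 (SE). GSTM3 and GSTT1 had means of 2345 ± 850.1 in P (SD, n = 6) and 2372 ± 552 in NP (SD, n = 5) and 1141 ± 287 in P (SD, n = 6) and 1301 ± 215 in NP (SD, n = 5), respectively. GSTA4, which clears lipid peroxidation products, and both GSTO1 genes were highest in P617, at 1574, 399 and 230.4, whereas GSTT3 was lowest there, at 42.9 against 199.9 to 924. Without both P617 and P1541, GSTA4 was lower in P at an unadjusted p under 0.05 (limma), which it was not with all cows.

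Sulfotransferases had 0 of 5 tested genes with an unadjusted p under 0.05, and 2 were higher and 3 lower in P. SULT1B1, which sulfates thyroid hormones, was at 4.52, 30.7, 7.74, 18.3, 9.06 and 24.5 in P cows and at 25.3, 11.2, 50.5, 29.0 and 58.1 in NP cows, or a log2 fold change of -1.15 ± 0.550 (SE) with an unadjusted p of 0.0586 (limma). SULT1A1, the phenol sulfotransferase, had 2726 ± 1214 in P (SD, n = 6) and 4033 ± 2513 in NP (SD, n = 5), with NP238 the highest. SULT2B1, which sulfates cholesterol, had 70.3 ± 28.8 in P (SD, n = 6) and 58.1 ± 19.2 in NP (SD, n = 5). SULT2A1 and SULT4A1 spanned 0.968 to 45.7 and 0 to 33.5 in P cows and 3.04 to 8.60 and 7.84 to 27.3 in NP cows. Of the 6 SULT genes below the minimum mean, SULT1C4 and SULT1D1 were at 0 in every cow.

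In the other pathway lists, 0 to 2 genes each had an unadjusted p under 0.05, against 2.35% of all genes tested higher in P and 5.49% higher in NP, and nothing is read from counts this small. Of 10 electron donors, 0 did so (limma), with a median log2 fold change of -0.03, and POR, the reductase of all microsomal P450 enzymes, had 1076 ± 63.0 in P (SD, n = 6) and 1125 ± 144 in NP (SD, n = 5). The smallest p-values in that list belonged to FDXR and FDX1, the reductase and the ferredoxin that feed mitochondrial P450 enzymes, at log2 fold changes of 0.40 and -0.26, and in P617 FDXR was the highest and FDX1 the lowest of all cows. Of 32 other oxidizing and hydrolyzing enzymes, 1 was higher in P (CES1, ENSBTAG00000001851, a carboxylesterase, 1.77) and 1 in NP (ALDH1A2), with a median close to 0. Another gene listed as CES1 (ENSBTAG00000011021) had a log2 fold change of 1.765 with an unadjusted p of 0.145 (limma). It was highest in P617, at 357 against at most 93.6 in the other cows. Of 13 other conjugating enzymes 0 had an unadjusted p under 0.05, and HNMT and GSTCD came nearest, at -0.94 and 0.43. Of 17 genes that supply glutathione, UDP-glucuronic acid, sulfate and methyl donors, 2 were higher in P, GGCT (0.77) and CTH (1.26), both of glutathione metabolism, and 0 in NP, with a median of 0.14. Without P617, both CES1 genes, GGCT and CTH had an unadjusted p over 0.05 (limma). UGDH, which makes UDP-glucuronic acid, was at 1754 in P617 and 1539 in P1541 and at 650.5 to 858 in the other 9 cows.

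Of 12 efflux transporters, 1 was higher in NP and 0 in P, with a median log2 fold change of -0.24. It was ABCB1, the multidrug pump P-glycoprotein, at 259, 1298, 263, 701, 787 and 662 in P cows and at 708, 1064, 1357, 1560.5 and 1210.0 in NP cows, with a log2 fold change of -1.01 ± 0.405 (SE) and -0.79 without P617, where its unadjusted p was over 0.05 (limma). P904 and P1753 were within the NP range, and P617 and P1541 were the lowest of all. Of 16 xenobiotic sensors and their partners, 1 was higher in NP (PPARG, -0.93) and 0 in P, with a median of -0.08. AHR, the aryl hydrocarbon receptor, had 424 ± 93.3 in P (SD, n = 6) and 506 ± 78.2 in NP (SD, n = 5), and its target TIPARP had 729.7 ± 286 in P (SD, n = 6) and 791 ± 159 in NP (SD, n = 5). NR1I2, NR1H4, HNF4A and AHRR did not reach the minimum mean.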

How the data were processed

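Endometrial biopsies of 6 P and 5 NP cows were analysed by RNA-Seq, with groups taken from the sample labels. Per the study's methods and the submitters' processing notes, base calls came from CASAVA 1.8.2, reads were cleaned with Seqyclean and aligned with Bowtie2 2.1.0 in local mode to a masked UMD3.1 genome, counted per gene with HTSeq 0.5.4p2 and normalized with DESeq2 1.12.1. The annotation release and the use of strand are not given in the sources used here, so counts of overlapping genes and near-identical copies are uncertain. The authors omitted 1 NP library. The deposited table holds DESeq2-normalized counts (unit: signal) in 11 columns, each matched to a cow.

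Values were whole multiples of 1 read for 100% of genes in every cow (tolerance 0.01), which gave the recovered reads. Because a deposited signal is not a count, differences were tested in R 4.3.3 with limma 3.58.1 (functions lmFit and eBayes, trend on) on log2(normalized count + 1) for 15081 genes whose mean was 5 or more, with Benjamini-Hochberg adjustment over all of them and a threshold of 0.1. A difference past an unadjusted p of 0.05 alone is given as a description. Marker scores are means of log2(normalized count + 1). Scripts were tested on simulated data. Alternatives were edgeR 4.0.16, DESeq2 1.42.0 and limma-voom on recovered reads, other filters, pseudocounts (0.5 and 5) and scaling factors, marker scores as covariates, P617 counted as NP, and leaving out cows. Intervals and floors of reads cover counting error only. No sequences or genome coordinates are given. The values of 1 pathway gene, which stays in the list counts, are not reported here.

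The enzyme genes and gene lists were chosen with earlier results of these data known, and the liver list was added after the values had been seen. Genes named are those with an unadjusted p under 0.05 or no overlap between groups, the 3 with the highest mean in each family, the 3 with the widest range, genes of steroid, retinoid, vitamin D or aryl hydrocarbon metabolism, and, from each pathway list, those with an unadjusted p under 0.05 or the 2 smallest p-values. Others were named after their values were seen.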

Additional observations from a re-analysis of the deposited data

Results flagged for a closer look

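Within a group, the distance of the extreme cow from its nearest neighbor was compared with the range of the group by Dixon's criterion for 45 named genes. It was exceeded in 17 of 90 groups, where chance gives about 1 in 20 for normally distributed values. The criterion was applied to normalized counts, some of them low and skewed, so that rate need not hold here. The genes were named in part for a wide range over the cows and with earlier results known, so nothing is read from this excess. In the P cows, P904 was apart in CYP24A1 (60.4, others at 0 to 8.05), CYP27C1 (43.1, others at 0 to 7.88) and UGT8 (31.6, others at 0 to 10.1). P2396 was apart in CYP11A1 (45.5, others at 3.87 to 16.3), P1541 in GSTA2 (72.6, others at 2.28 to 28.0), P1631 in GSTA3 (2899.6, others at 1.01 to 314) and P1753 in GSTP1 (4068, others at 2059 to 2773). P617 was apart in CYP3A5 (99.4, others at 0 to 2.87), FDX1 (212, others at 320.3 to 375) and FDXR (351, others at 111 to 168). In the NP cows, NP2810 was apart in CYP4F3 (1795, others at 516 to 789) and UGT2A3 (11.2, others at 2.15 to 4.06). NP856 was apart in CYP2C18 (4.30, others at 0 to 1.02) and UGT8 (29.0, others at 1.01 to 8.15), NP2541 in CYP11A1 (26.7, others at 0 to 7.53), NP238 in ALDH1A2 (676, others at 227 to 332) and NP638 in GSTA3 (2088, others at 3.03 to 109.8). All values are normalized counts.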

How the results depend on the processing

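With all cows, 10 of the 45 enzyme genes were higher in P and 3 in NP at an unadjusted p under 0.05 (limma). The count higher in P was 7 with a minimum mean of 20 and 4 with the smooth muscle score as a covariate. It was 4 with P617 counted as NP, 5 without P617 and P1541 together, and 5 to 8 when 1 cow was left out. The count higher in NP was 1 with a minimum mean of 20, 1 with the smooth muscle score, 0 with P617 counted as NP, and 1 to 6 when 1 cow was left out. An adjusted p under 0.1 was found for 2 genes with the epithelial score (CYP1B1 and CYP2U1) and for 2 with DESeq2, and for 0 under every other alternative, with all removals of 1 cow at 0 to 0. Over all genes tested, adjusted calls were 0 in the fit of all cows, 140 with the epithelial score, 201 with DESeq2 and 171 without P904. Genes with an unadjusted p under 0.05 in either direction were 1182 in the fit of all cows and 853 to 1548 when 1 cow was left out (limma). Genes without overlap and higher in P were 3 with all cows, 1 with P617 counted as NP, and 3 to 5 when 1 cow was left out (5 without NP638, where CYP2R1 and GSTM1 joined). Genes without overlap and higher in NP were 0 with all cows, 1 without P617 and P1541, and 0 to 2 when 1 cow was left out (2 without P904, CYP7B1 and CYP27C1). The median log2 fold change of the 45 genes was 0.12 and ran from -0.08 to 0.26 over the alternatives. Of 307 alternative values for the 13 genes, 0 changed direction, nor did any for the 12 named pathway genes with an unadjusted p under 0.05, of which RDH10 passed the adjusted threshold with the epithelial score, with DESeq2 and without P904 and CRABP1 with DESeq2. No paired analysis was possible because the cow numbers are not shared between the groups. The causes were not tested.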
